A study of Mus musculus with 4 samples.

Results

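The genes described here encode proteins of the cilium and the centrosome: dynein heavy chains of the axoneme (Dnah), intraflagellar transport proteins (Ift), Bardet-Biedl syndrome proteins (Bbs), tectonics of the transition zone (Tctn1, Tctn2 and Tctn3), centrosomal proteins (Cep) and kinases of the Nek family. Genes were taken by the symbols of these families, which were picked with earlier results of these data known, and 84 of the 20660 genes with a named probe on the array belong to them: 10 Dnah, 14 Ift, 8 Bbs, 3 Tctn, 38 Cep and 11 Nek genes. For each gene the probe with the highest mean signal over all arrays was used, so the levels below are descriptive, while the difference between the fractions played no part in that choice. The arrays compared 2 sorted fractions of differentiating mouse cells, with 2 single-colour Agilent arrays for each. Both fractions came from EB5 embryonic stem (ES) cells in which Venus, a fluorescent protein, reports on Hoxb6, known from posterior mesoderm, and both had spent 6 days on OP9 stromal feeder cells. Both were sorted for Flk-1, a receptor for VEGF that the gene Kdr encodes. They differ in the reporter: Flk-1+ Hoxb6-Venus+ cells (Venus-positive) are set against Flk-1+ Hoxb6-Venus- cells (Venus-negative). All samples derive from a single ES cell line, and nothing says whether the replicates were separate cultures, so the spread behind each p-value is that of these arrays and may be technical.

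A cilium grows from a mother centriole that docks at the membrane. Its microtubule core, the axoneme, is extended and maintained by intraflagellar transport, in which the IFT-B complex carries cargo to the tip and IFT-A acts in the return, while the BBSome moves membrane proteins out of the cilium and the transition zone gates its base. Motile cilia add dynein arms, as in the embryonic node where their beating sets the left-right axis; most mesodermal and endothelial cells instead have a single immotile primary cilium used in Hedgehog signalling and in sensing flow. In dividing cells the same centrioles organise the spindle poles, and several Cep and Nek proteins act there.

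Signals are given as log2 values relative to the 75th percentile of each array, so that 0 marks that percentile and a difference of 1 is a factor of 2. On each array 50.7% to 53.0% of spots passed the scanner's test against background and 0 were saturated; precision is limited by having 2 arrays a fraction. Hoxb6 stood at 2.00 and 2.24 on the Venus-positive arrays, against 1.23 and 0.98 on the Venus-negative arrays, and Kdr at 6.06 and 6.08, against 5.72 and 5.55. Their log2 changes were 1.01 ± 0.16 and 0.44 ± 0.11 SE (limma adjusted p = 0.0716 and 0.138). Neither gene had an adjusted p under 0.05. Of the marker lists, 10 of 10 endothelial genes had a positive log2 change (median 1.48, 4 higher past the threshold) and 8 of 8 primitive streak genes measured in both fractions a negative one (median -3.59, 4 lower). Mesp1 and Mesp2 passed the background filter through the Venus-negative arrays alone, which fixed their direction, and are left out of that count. The summed relative signal of 10 OP9 and adipocyte genes was 63.5 and 46.2 in Venus-positive cells, against 76.0 and 71.2 in Venus-negative cells (0 called; Postn passed the filter through the Venus-positive arrays alone), and that of 8 pluripotency genes 30.5 and 20.8, against 76.7 and 50.2 (1 lower). The part of these populations in the values below was not tested. The Venus-positive arrays occupied 1 column of the slide and the Venus-negative arrays another, so that column and fraction cannot be told apart. In sorted populations fewer cells of a type and less RNA per cell cannot be told apart either.

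Of the 84 genes, 75 were measured, and all 75 were well above background on all 4 arrays, so none entered the comparison through the fraction in which it was high. Between the fractions most of them differed little, as did most of all genes tested. The log2 change, Venus-positive minus Venus-negative, was under 0.5 in size for 59 of the 75 (78.7%, against 75.7% of all 13925 genes tested). It was under 0.25 for 38 (50.7%, against 52.4%). In limma with Benjamini-Hochberg adjustment over 23547 features, 3 of the 75 were called higher in Venus-positive cells at an adjusted p under 0.05 and 0 lower. The 3 were Dnah6, Nek6 and Cep85l. Among all genes 0.984% were called higher and 1.85% lower. Without adjustment, 18 of the 75 were higher at p under 0.05 (24%, against 14.1% of all genes) and 4 lower (5.33%, against 11.9%). A difference of at least 2-fold was seen in 3 genes higher and 1 lower, where the background was 4.14% and 5.18%. In 33 of the 75 genes both Venus-positive arrays were above both Venus-negative ones, against 32.3% of all genes tested. In 19 of the 75 both Venus-positive arrays were below, against 29.5%. Log2 changes were positive for 48 of the 75 (64%, against 51.9% of all genes tested), with a median of 0.11, against 0.01 over all genes tested. Without any single array 1 fraction has 1 array left, and 0 of all genes tested, these 75 included, then passed in limma; before adjustment 9 or 10 of the 75 were then higher and 1 to 5 lower. With median scaling of the arrays, the 3 genes still passed and 0 were lower, while 53.3% of all called genes were lower in place of 65.2%.

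**Figure D1:**
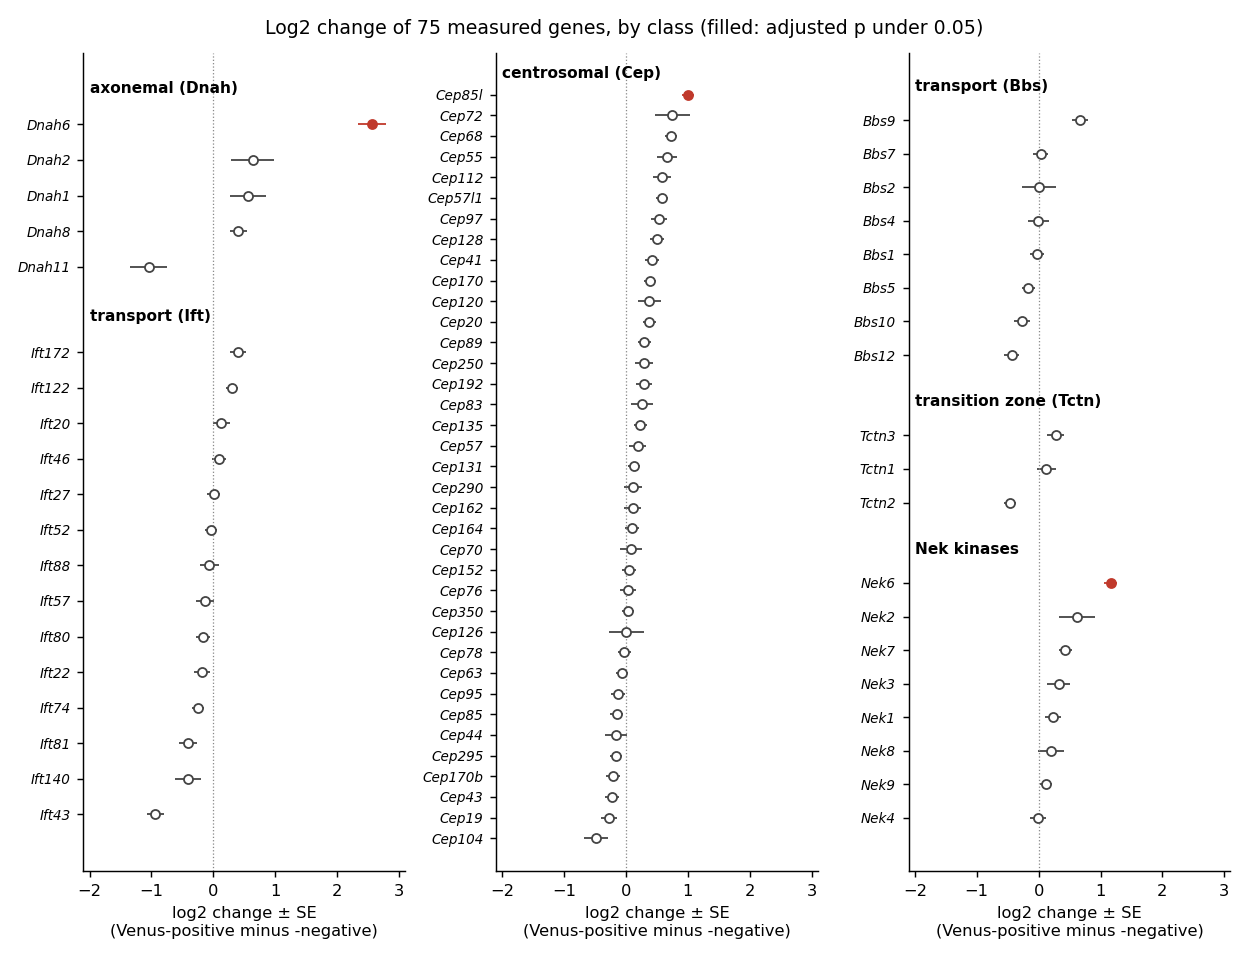
Log2 change (Venus-positive minus Venus-negative, x axis) with its moderated standard error for the 75 measured genes, grouped by class and sorted within it; filled red points have an adjusted p under 0.05. Dnah6, Nek6 and Cep85l stand at 2.57, 1.17 and 1.00, and most other points lie within 0.5 of 0.

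Dnah6 showed the largest difference of the 75. It encodes an inner-arm dynein heavy chain of motile axonemes and lies on chromosome 6, at chr6:73017603-73222227 of GRCm38.p6. Its log2 signal was 2.81 and 2.25 on the Venus-positive arrays, against -0.04 and -0.03 on the Venus-negative arrays. The fractions were far apart, and the spread was wider in the Venus-positive cells (2.53 ± 0.40) than in the Venus-negative cells (-0.03 ± 0.01; SD, n = 2 each). The Venus-positive cells had a level 5.93-fold higher (log2 change 2.57 ± 0.22 SE, limma adjusted p = 0.0386). It was 2.86 between the arrays of replicate 1 and 2.28 between those of replicate 2. Without a single array it stayed between 2.29 and 2.85, with limma adjusted p-values of 0.135 to 0.172. Dnah6 had a single probe.

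None of the other axonemal dyneins passed the test. Of 10 Dnah genes 5 were measured. Of those 4 had a positive change (51.9% of all genes did) and 1 a negative one, with a median of 0.56. Dnah2, an inner-arm dynein, had log2 signals of 1.72 and 0.88 in Venus-positive cells, against 0.84 and 0.49 in Venus-negative cells. The fractions nearly met, and the change of 0.64 ± 0.35 SE had a limma adjusted p of 0.351. Without Venus-positive replicate 1 it was 0.21 and without Venus-positive replicate 2 it was 1.06. Dnah1, also of the inner arms, had dim signals of -3.05 and -2.32, against -3.36 and -3.12 (change 0.56 ± 0.30 SE, limma adjusted p = 0.342), and its change was 0.01 with model-based background correction (normexp). Dnah8, an outer-arm dynein best known from sperm, stood at 0.55 and 0.81, against 0.32 and 0.24 (0.40 ± 0.14 SE, limma adjusted p = 0.204). A second Dnah8 probe gave 0.03.

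Dnah11 had a negative change. This outer-arm dynein is needed for the left-right axis in the mouse. Its signals were dim, at -4.03 and -4.48 on the Venus-positive arrays, against -2.90 and -3.53 on the Venus-negative arrays. The fractions did not overlap, but the gap between them was smaller than that between the Venus-negative arrays, and the change of -1.04 ± 0.30 SE did not pass (limma adjusted p = 0.158). It was -0.42 with normexp and -0.72 without Venus-negative replicate 1. The outer-arm dyneins Dnah5, Dnah9 and Dnah17 and the inner-arm dynein Dnah7a were well above background on 0 of the 4 arrays, and Dnah10 on 1 array of each fraction. No change is given for these 5 genes.

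**Figure D2:**
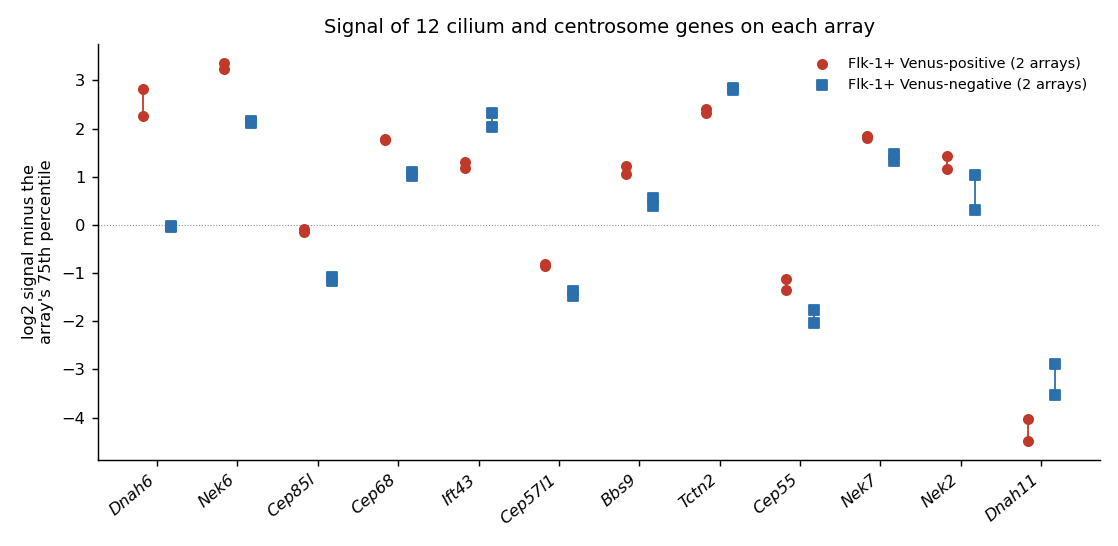
Log2 signal relative to each array's 75th percentile (y axis) for 12 genes, with the 2 Venus-positive arrays as red circles left of the 2 Venus-negative arrays as blue squares, and lines joining arrays of a fraction. In Dnah6, Nek6 and Cep85l the gap between fractions is larger than the gap between arrays of a fraction. The same holds for the other genes shown except Nek2 and Dnah11, which spread widely within the Venus-negative cells.

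Nek6 had the largest change of the measured kinases. Nek6 and its close relative Nek7 are activated by Nek9 and act in building the mitotic spindle and in separating centrosomes. Nek6, on chromosome 2 (chr2:38483863-38587490, GRCm38.p6), had log2 signals of 3.36 and 3.24 in Venus-positive cells, against 2.15 and 2.12 in Venus-negative cells. Arrays of the same fraction almost coincided. The Venus-positive cells had a level 2.24-fold higher (log2 change 1.17 ± 0.10 SE, limma adjusted p = 0.0395). A second Nek6 probe gave nearly the same value, 1.11 ± 0.10 SE. Second probes were tested in a separate limma fit of all kept probes. There the limma adjusted p was 0.0376 for the second Nek6 probe and 0.0365 for the probe used. Within replicates 1 the difference was 1.21 and within replicates 2 it was 1.12. Without a single array the change lay between 1.10 and 1.23 and the limma adjusted p between 0.140 and 0.181.

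Its partners differed less. Nek7 had log2 signals of 1.80 and 1.85, against 1.32 and 1.47, without overlap (0.43 ± 0.11 SE, limma adjusted p = 0.136). Nek9, the activating kinase, stood at 3.40 and 3.38, against 3.26 and 3.29 (0.11 ± 0.09 SE, limma adjusted p = 0.523). Nek2, which severs the linker between centrosomes before mitosis, stood at 1.43 and 1.17, against 1.03 and 0.32. The Venus-negative arrays were further apart than the fractions' means, and the change of 0.62 ± 0.29 SE did not pass (limma adjusted p = 0.298); it was 0.98 without Venus-negative replicate 1 and 0.27 without Venus-negative replicate 2. Nek3 had 1.66 and 1.99, against 1.34 and 1.65 (0.33 ± 0.19 SE), and overlap was narrowly avoided. Nek1, a kinase of cilia whose loss gives polycystic kidneys in the mouse, had -2.06 and -1.84, against -2.23 and -2.13 (0.23 ± 0.13 SE). Both missed the threshold (limma adjusted p = 0.378 and 0.363). Of 8 measured Nek genes 7 had a positive change (51.9% of all genes did), the median being 0.28. Nek8 and Nek4 overlapped between fractions. Nek11 was well above background on 0 arrays, Nek10 on 1 Venus-negative array and Nek5 on 1 Venus-positive array.

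The centrosomal Cep genes formed the largest class, with 37 of 38 measured; the exception was Cep295nl, which was well above background on 0 arrays. Of the 37, 27 had a positive change (51.9% of all genes did) and 10 a negative one, with a median of 0.13, and 1 was called. Before adjustment 11 were higher at p under 0.05 (29.7%, against 14.1% of all genes) and 0 lower (against 11.9%). Cep85l, a protein of the pericentriolar material needed for neuronal migration, lies on chromosome 10 (chr10:53273441-53379883, GRCm38.p6). It had log2 signals of -0.09 and -0.15 in Venus-positive cells, against -1.08 and -1.16 in Venus-negative cells. The arrays of each fraction lay close together, and the Venus-positive cells had a level 2.00-fold higher (log2 change 1.00 ± 0.10 SE, limma adjusted p = 0.0440). The 2 within-replicate differences were 1.00 and 1.01. Leaving out a single array gave 0.96 to 1.04, with limma adjusted p-values of 0.146 to 0.199, and with normexp the change was 0.74. Its paralog Cep85 stood at -2.12 and -2.15, against -1.92 and -2.04 (-0.15 ± 0.10 SE, limma adjusted p = 0.448; named after its values were seen).

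Next came Cep68, a protein of the linker that tethers the centrosomes and that is dismantled through Nek2. Its log2 signals were 1.77 and 1.79, against 1.03 and 1.09. Both fractions were tight, and the change of 0.72 ± 0.10 SE, a factor of 1.65, just missed the threshold (limma adjusted p = 0.0613); it passed with normexp (0.0305) and with a signal-dependent variance prior (0.0249). A second Cep68 probe gave 0.51 ± 0.16 SE. In the limma fit of all kept probes its adjusted p was 0.182, against 0.0574 for the probe used. Cep57l1, the paralog of the centriole protein Cep57, had -0.82 and -0.86, against -1.37 and -1.47, with no overlap (0.58 ± 0.10 SE, limma adjusted p = 0.0845). Cep97, which caps centrioles with Cp110 and restrains cilium growth, had -0.57 and -0.75, against -1.28 and -1.12 (0.54 ± 0.13 SE, limma adjusted p = 0.127). Cep128, of the subdistal appendages, had -2.03 and -1.96, against -2.41 and -2.58 (0.50 ± 0.11 SE, limma adjusted p = 0.119). All 3 were higher in each Venus-positive array than in either Venus-negative array, as were 19 of the 37 Cep genes (background 32.3%), while 8 were lower without overlap (background 29.5%).

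The Cep genes with the highest signals, and those whose probes disagreed, had smaller changes than those above. Cep83, which recruits the distal appendages by which a centriole docks, had 3.98 and 3.68, against 3.71 and 3.43, and the fractions overlapped (0.26 ± 0.18 SE). Cep89, of the same appendages, had 3.36 and 3.45, against 3.08 and 3.13 (0.30 ± 0.10 SE, limma adjusted p = 0.200). Its second probe went the other way, at -0.06 ± 0.13 SE. Cep63, which acts in centriole duplication, had 3.43 and 3.45, against 3.49 and 3.51 (-0.07 ± 0.09 SE), and Cep170b, a microtubule-binding protein, had 5.56 and 5.64, against 5.88 and 5.73 (-0.21 ± 0.11 SE). The limma adjusted p-values of Cep83, Cep63 and Cep170b were 0.444, 0.716 and 0.339. Second probes of opposite sign were also found for Cep41, a ciliary protein of Joubert syndrome (0.42 ± 0.11 SE and -0.20 ± 0.17 SE), Cep162 (0.11 and less than 0.01 below 0) and Cep350 (0.03 and -0.03). Cep41 stood at -0.10 and 0.05, against -0.49 and -0.41, Cep162 at 0.03 and 0.30, against 0.03 and 0.07, and Cep350 at 0.19 and 0.20, against 0.13 and 0.19.

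Of the transport genes, all 14 Ift and all 8 Bbs genes were measured, and 0 were called in limma; before adjustment 3 were higher at p under 0.05 (13.6%, against 14.1% of all genes) and 2 lower (9.09%, against 11.9%). The median change was -0.10 for Ift and -0.02 for Bbs genes, and 14 of the 22 were within 0.25 of 0 (63.6%, against 52.4% of all genes). Ift43, a small subunit of the retrograde IFT-A complex, had the largest change of the 22. It had log2 signals of 1.30 and 1.18 in Venus-positive cells, against 2.31 and 2.04 in Venus-negative cells. The fractions were clearly apart, and the level was 1.91-fold lower in the Venus-positive cells (log2 change -0.94 ± 0.14 SE), but it was not called (limma adjusted p = 0.0716). With normexp the adjusted p was 0.0324 and with a signal-dependent variance prior 0.0281.

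The other IFT-A genes did not share a direction. Ift122 had 2.58 and 2.52, against 2.25 and 2.24 (0.30 ± 0.10 SE, limma adjusted p = 0.184), and a second probe gave 0.14. Ift140, a dim gene named after its values were seen, stood at -4.23 and -4.51, against -3.75 and -4.17 (-0.41 ± 0.20 SE, limma adjusted p = 0.322). Wdr35, an IFT-A subunit under another name, had -1.29 and -1.70, against -0.13 and -0.32, without overlap (-1.27 ± 0.19 SE, limma adjusted p = 0.0688), and Ttc21b, another IFT-A subunit named after its values were seen, had a change of -0.25 ± 0.13 SE. The 11 IFT-B genes of the Ift class ran from -0.40 (Ift81) to 0.40 (Ift172), with 4 positive and 7 negative changes. Ift172 had 1.31 and 1.55, against 1.03 and 1.04 (0.40 ± 0.13 SE, limma adjusted p = 0.187). Ift46, Ift27 and Ift57 were nearly level, with changes of 0.10 ± 0.12, 0.01 ± 0.10 and -0.13 ± 0.15 SE. Ift46 had 4.67 and 4.53, against 4.58 and 4.43, Ift27 had 3.45 and 3.49, against 3.41 and 3.52, and Ift57 had 2.28 and 2.51, against 2.42 and 2.64; in each the fractions overlapped.

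Bbs9, a BBSome subunit, had the largest change of the Bbs genes. Its log2 signals were 1.23 and 1.05 in Venus-positive cells, against 0.55 and 0.39 in Venus-negative cells. The fractions did not overlap, and the change was 0.67 ± 0.13 SE, a factor of 1.59 (limma adjusted p = 0.0975). The other BBSome genes Bbs1, Bbs2, Bbs4, Bbs5 and Bbs7 had changes between -0.16 and 0.03. Bbs12, a chaperonin-like protein that helps assemble the BBSome, had -0.40 and -0.37, against -0.04 and 0.14 (-0.44 ± 0.12 SE, limma adjusted p = 0.144), and the related Bbs10 had a change of -0.27 ± 0.13 SE.

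The tectonics sit in the transition zone, where they hold back proteins from the cilium and are needed for Hedgehog signalling in the mouse. Tctn2 had log2 signals of 2.40 and 2.33 in Venus-positive cells, against 2.85 and 2.80 in Venus-negative cells. The arrays of each fraction were close and did not overlap with the other (-0.46 ± 0.10 SE, a factor of 1.38 lower, limma adjusted p = 0.113; 0.0480 with a signal-dependent variance prior). Tctn3 had -1.02 and -0.76, against -1.21 and -1.13 (0.28 ± 0.14 SE, limma adjusted p = 0.318), and Tctn1 had -1.30 and -1.06, against -1.42 and -1.18 (0.12 ± 0.15 SE, limma adjusted p = 0.684), with overlap.

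**Figure D3:**
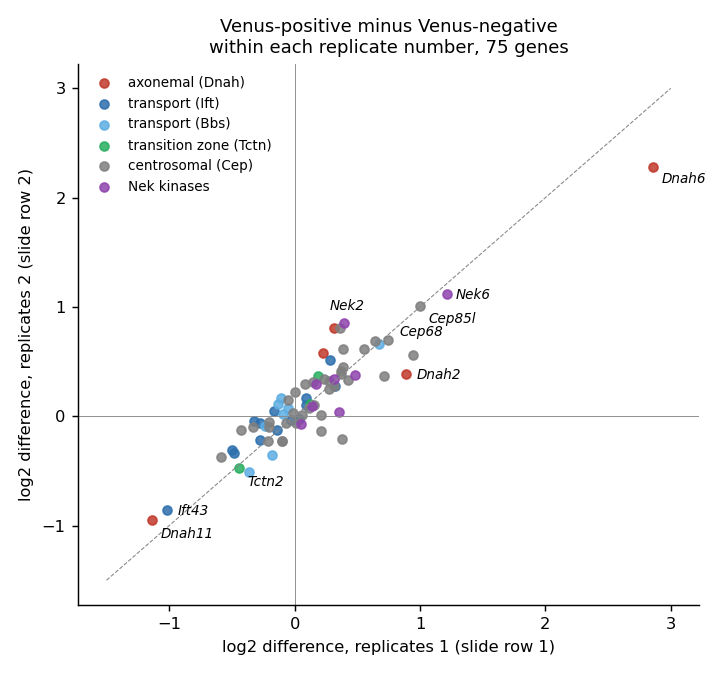
Log2 difference, Venus-positive minus Venus-negative, between the arrays of replicate 1 (x axis, row 1 of the slide) and between those of replicate 2 (y axis, row 2), for the 75 genes coloured by class; the dashed line marks equal differences. The differences had the same sign in 62 of 75 genes. The share over all genes was not counted, so it is not known whether this is particular to these genes. Dnah6, Nek6, Cep85l, Cep68, Ift43 and Dnah11 lie far from 0 on both axes, and of these only the first 3 were called.

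The upstream sequences of the 3 called genes are given with their matches to a known ciliary element. The X-box is the site bound by RFX factors, which drive many ciliary genes. It was searched on both strands as GTTNC, then 3 or 4 bases of any kind, then GNAAC, spacings chosen after the Dnah6 sequence was seen, along with the CCAAT box, in the 250 bases before each start site in RefSeq (GRCm38.p6). The table held 66 of the 75 genes. Each sequence runs 5′ to 3′ on the gene's strand, and capitals mark an X-box or a CCAAT box, which reads ATTGG on the other strand.
Dnah6: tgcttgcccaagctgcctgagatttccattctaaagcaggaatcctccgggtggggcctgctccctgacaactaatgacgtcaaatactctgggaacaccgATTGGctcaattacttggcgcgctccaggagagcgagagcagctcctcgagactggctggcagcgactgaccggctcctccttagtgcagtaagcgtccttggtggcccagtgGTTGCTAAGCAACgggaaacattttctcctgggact
Nek6: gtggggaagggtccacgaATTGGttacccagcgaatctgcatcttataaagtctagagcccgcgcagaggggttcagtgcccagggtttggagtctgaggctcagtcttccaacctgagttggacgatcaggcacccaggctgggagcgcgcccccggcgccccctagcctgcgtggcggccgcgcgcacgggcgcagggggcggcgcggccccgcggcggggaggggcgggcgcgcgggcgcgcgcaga
Cep85l: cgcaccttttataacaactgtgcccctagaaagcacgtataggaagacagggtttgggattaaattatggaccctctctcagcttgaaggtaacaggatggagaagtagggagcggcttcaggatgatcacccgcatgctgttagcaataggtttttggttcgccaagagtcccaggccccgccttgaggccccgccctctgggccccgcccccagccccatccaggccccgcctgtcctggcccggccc
The Dnah6 window (chr6:73221632-73221881, minus strand) held the X-box 36 to 24 bases before the start site in the table, which lies 596 bases inside the annotated span of the gene. The X-box pattern is its own reverse complement, so any match to it is a match on both strands. A CCAAT box lay 149 to 145 bases before the same start site. The Nek6 window (chr2:38511447-38511696, plus strand) was the more upstream of 2 in the table. Its start site lies 27834 bases inside the annotated span of the gene, and the sequence before that span was not searched. This Nek6 window held a CCAAT box alone, 232 to 228 bases before its start site. The Cep85l window (chr10:53379884-53380133, minus strand) held neither. No match overlapped another motif in these windows.

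The X-box matched in 5 of the 66 genes. Their sites are shown to set that of Dnah6 beside those of genes that did not pass.
Dnah6: GTTGCTAAGCAAC
Ift57: GTTGCCTGGTAAC
Tctn3: GTTGCCAGGTAAC
Bbs7: GTTGCCTTGGAAAC
Cep112: GTTACCATAGCAAC
The form with 3 bases between was found in 3 of the 66, Dnah6, Ift57 and Tctn3 (4.54%), against 0.962% of 27025 genes; without Dnah6, on whose sequence the spacing was set, it was found in 2 of 65 (3.08%). The CCAAT box was found in 32 of the 66 (48.5%), against 37.5%, and the X-box with 4 bases between in 2, Bbs7 and Cep112 (3.03%, against 0.981%). The 66 genes were all measured, whereas the 27025 were taken whether measured on these arrays or not. The 2 sets are therefore unlike, and the part of this in the shares was not tested. On GRCm38.p6 the sites lie at chr6:73221655-73221667 (Dnah6), chr16:49699234-49699246 (Ift57), chr19:40612359-40612371 (Tctn3), chr3:36613497-36613510 (Bbs7) and chr11:108425026-108425039 (Cep112). The log2 changes of the 5 genes were 2.57 for Dnah6, -0.13 for Ift57, 0.28 for Tctn3, 0.03 for Bbs7 and 0.59 for Cep112, and all but Dnah6 missed the threshold. A match describes letters and not a bound site.

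Lists of other genes of the same structures, which leave out the genes above, had median changes between -0.12 and 0.11, with the mitotic list apart. Of these lists 0 genes were called in limma over all features, where 2.83% of all genes were. The counts before adjustment, given for each list, stand against 14.1% of all genes higher and 11.9% lower. Counts of positive changes stand against 51.9% of all genes. Of 16 measured genes of axonemes and dynein assembly, 5 had a positive change, with a median of -0.12; 2 were higher and 2 lower before adjustment (p under 0.05). Rsph9, a radial spoke protein, had -2.33 and -2.12, against -1.12 and -0.86, lower without overlap (-1.23 ± 0.15 SE, limma adjusted p = 0.0565). Hydin, of the central pair, had -3.10 and -3.35, against -3.98 and -3.80 (0.66 ± 0.15 SE, limma adjusted p = 0.115). The 2 axonemal genes with the lowest p-values in the list had changes of opposite sign. Of 17 transport genes under other names, 7 had a positive change, with a median of -0.11 (1 higher and 3 lower unadjusted); beside Wdr35, Tulp3, an adaptor of IFT-A, had 1.09 and 1.10, against 1.46 and 1.49 (-0.37 ± 0.09 SE, limma adjusted p = 0.136). Of 16 BBSome and trafficking genes, 10 were positive, with a median of 0.10 (3 higher and 0 lower unadjusted). Bbip1, the smallest BBSome subunit, had -2.82 and -2.93, against -3.44 and -3.64 (0.67 ± 0.13 SE, limma adjusted p = 0.0943), and Wdpcp had 0.16 and 0.20, against -0.20 and -0.28 (0.42 ± 0.10 SE, limma adjusted p = 0.126).

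Of 20 other transition zone genes, 12 were positive, with a median of 0.05, and 1 was higher and 4 lower unadjusted. Tmem231 had -3.26 and -3.11, against -2.57 and -2.55 (-0.63 ± 0.11 SE, limma adjusted p = 0.0821), and B9d2 had 2.47 and 2.52, against 3.08 and 3.39 (-0.74 ± 0.15 SE, limma adjusted p = 0.103). Both belong to the complex that holds the tectonics. Of 29 genes of centriole duplication and pericentriolar material, 20 were positive, with a median of 0.11 (6 higher and 2 lower unadjusted). Cenpj, which sets centriole length, had 2.38 and 2.47, against 1.60 and 1.35 (0.95 ± 0.14 SE, limma adjusted p = 0.0658), whereas ninein (Nin), of the subdistal appendages, had 0.38 and 0.15, against 1.32 and 1.25 (-1.02 ± 0.13 SE, limma adjusted p = 0.0569).

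Mitotic genes are given beside the centrosomal ones. All 23 measured genes of mitotic kinases and the spindle pole had a positive change (51.9% of all genes did), with a median of 0.65. The 2 Venus-negative arrays differed by a median of 0.52 in these genes, against 0.17 over all genes. Between the Venus-positive arrays the median gap was 0.11 in these genes. Before adjustment 10 of the 23 were higher at p under 0.05 (against 14.1% of all genes) and 0 lower (against 11.9%). After adjustment 0 were called in limma. Mki67, a marker of cycling cells, had 4.91 and 4.89, against 4.28 and 4.03 (0.74 ± 0.13 SE, limma adjusted p = 0.0837), and Cdk1, the mitotic kinase, had 1.86 and 1.76, against 1.16 and 0.63 (0.91 ± 0.22 SE, limma adjusted p = 0.125). The summed relative signal of the 23 was 362 and 347 in Venus-positive cells, against 283 and 220 in Venus-negative cells. Cep55, which acts in the final cut between daughter cells and is named after its values were seen, had -1.12 and -1.36, against -1.76 and -2.04 (0.66 ± 0.16 SE, limma adjusted p = 0.134), close to the mitotic median. The part of cell cycle genes in the values of Nek6, Nek2, Cep55, Cep68 and Cep85l was not tested.

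**Figure D4:**
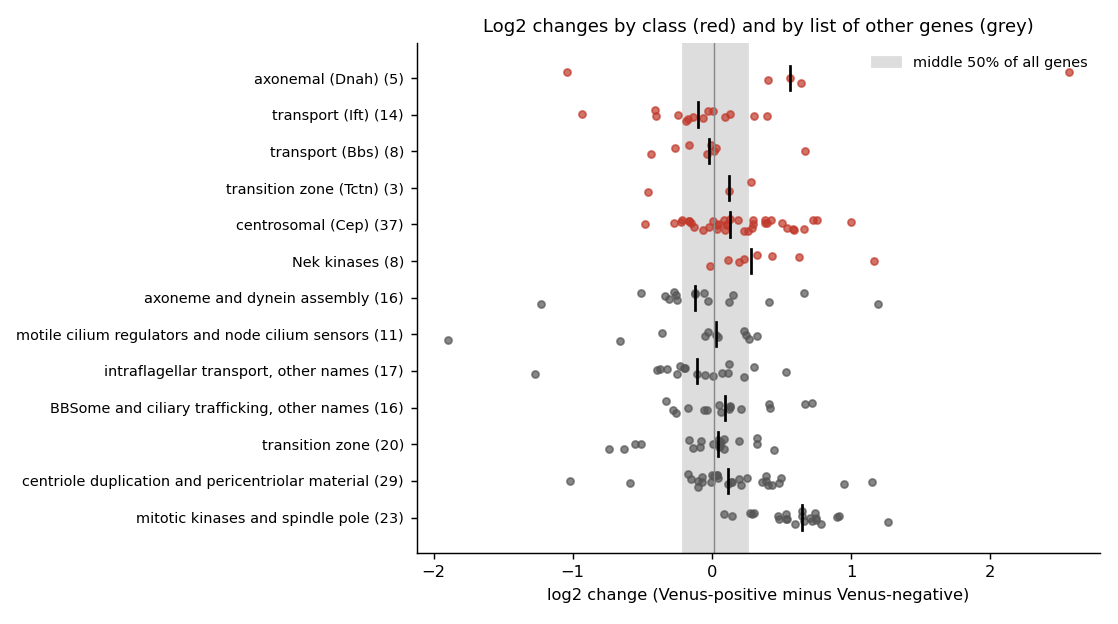
Log2 change (x axis) of each measured gene by class (red) and in lists of other genes of the same structures (grey), with the number of genes in brackets and a black bar at the median; the shaded band holds the middle 50% of all genes. The mitotic list has its median at 0.65 and all 23 points above 0, while 14 of the 22 Ift and Bbs genes lie within 0.25 of 0.

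Of the 75 genes, 16 had at least 1 further probe well above background on all 4 arrays, 18 probes in all. Of these 14 had the same sign as the probe used and 4 the opposite sign, as given for Cep41, Cep89, Cep162 and Cep350. The median difference between their log2 changes was 0.12. In the separate limma fit of all kept probes, the only further probe past the threshold was that of Nek6.

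**Figure D5:**
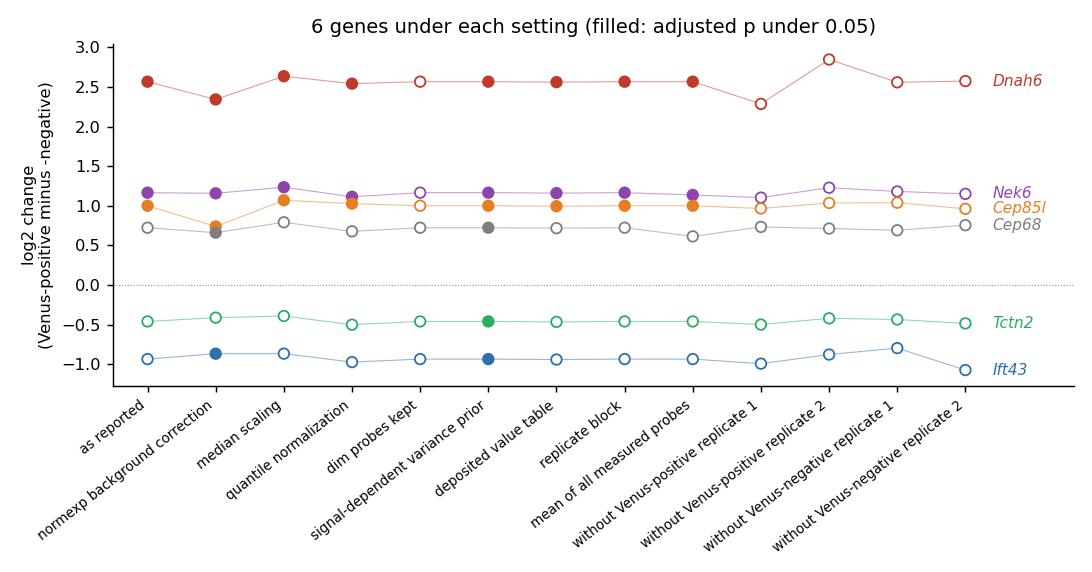
Log2 change (y axis) of 6 genes as reported and under each alternative setting (x axis); filled points have an adjusted p under 0.05. The order and sign of the 6 genes are the same throughout, whereas with dim probes kept or without any single array 0 of them pass.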

How the data were processed

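The authors deposited 1 scanner table per array, with spot intensity read by Agilent's Feature Extraction (version 10.10.1.1). The processed signal is background-subtracted and spatially detrended within the array, per the file headers. The 0 or 1 flags of each spot come from the same deposited tables. The authors' value table equals that signal times 1 constant per array. The 4 arrays shared 1 slide and 1 scan.

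Control and outlier spots were left out, log2 signals were centred on each array's 75th percentile and spots of a probe averaged. Accessions gave 27235 of 55681 probes a symbol through RefSeq (GRCm38.p6). A probe was kept if it passed the scanner's test against background on both arrays of at least 1 fraction, leaving 13925 genes and 9622 unnamed probes. These were fitted by lmFit and eBayes (limma 3.58.1, R 4.3.3), with Benjamini-Hochberg adjustment over all features; the script was tested on simulated data. SE is the moderated standard error. Second probes of a gene were fitted apart, with all kept probes as features.

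The members and lists were chosen with earlier results of these data known. Named were called genes, the 5 lowest p-values and 3 highest signals of each class (Ift and Bbs as 1 class), genes with a second probe of opposite sign, and the 2 lowest p-values of each list. Alternatives were normexp background correction on median spot signals (a mean signal column was not used here), median and quantile scaling, dim probes kept, a signal-dependent variance prior, the deposited values, the replicate block, the mean of all measured probes of a gene and leaving out each array.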

Additional observations from a re-analysis of the deposited data

How the results depend on the processing

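With 2 arrays a fraction, the adjusted calls sit near the threshold. Median scaling, quantile normalization, the deposited values, the replicate block and the mean over probes each called the same 3 genes higher and 0 lower in limma. Normexp added Cep68 and called 1 gene lower (Ift43); a signal-dependent variance prior added Cep68 and called 2 lower (Ift43 and Tctn2). With dim probes kept, 0 of the 75 and 0 of all genes were called in limma. Before adjustment 14 of the 75 were higher there and 4 lower, at p under 0.05. More features were tested in that setting, and standard errors were larger too. Those of Dnah6, Nek6 and Cep85l were 0.238, 0.116 and 0.113, against 0.224, 0.104 and 0.101 as reported. The cause of the lost calls was not tested. Leaving out each array in turn leaves 1 array in a fraction and gave 0 calls throughout, among the 75 and among all genes, higher or lower, so that these losses say nothing about single genes. Against 137 genes higher and 257 lower as reported, normexp called 491 and 538, the variance prior 597 and 650, the replicate block 290 and 421, and median scaling 259 higher; the causes were not tested. Differences between replicates 1 and 2 correlated between fractions across all genes (r = 0.53), but with 2 numbers this does not establish pairing, and the block changed none of the 3 calls.

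Of the named genes, 4 with changes near 0 turned sign. Tctn1 was -0.025 with normexp and -0.0018 to 0.243 over the 4 arrays left out in turn. Cep63 was 0.0096 with normexp and 0.0036 with median scaling. Ift27 was -0.037 with quantile normalization and -0.045 to 0.058 over the arrays left out. Cep162 was -0.023 to 0.244 over the arrays left out. The median of the Tctn class was -0.03 with normexp. Signal over background limits Dnah1, Dnah11 and Ift140, which are dim, and the 9 unmeasured genes. It also limits Hydin, Tmem231 and Bbip1 of the lists, which are about as dim as Dnah1 and have no normexp value here.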

Other observations

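Regulators of motile cilia and markers of the node gave no called difference in limma. Of 10 regulators and node sensors measured in both fractions (Rfx2, which passed through the Venus-negative arrays alone, is left out), 6 had a positive change, with a median of 0.03, and before adjustment 0 were higher at p under 0.05 and 1 lower. That gene was Ccno, a cyclin-like protein of multiciliated cells, with log2 signals of -1.36 and -2.06 in Venus-positive cells, against 0.63 and -0.26 in Venus-negative cells (-1.90 ± 0.42 SE, limma adjusted p = 0.117). Pkd1, a polycystin, had the next lowest p-value, with a change of 0.23 ± 0.11 SE (limma adjusted p = 0.297). Foxj1, the main transcription factor of motile cilia, had a change of 0.27 ± 0.14 SE (limma adjusted p = 0.325). Of the RFX factors, Rfx3 had a change of 0.04 ± 0.14 SE and Rfx1 one of -0.05 ± 0.20 SE (limma adjusted p = 0.886 and 0.902; Foxj1 and both RFX genes were named after their values were seen). Of 10 node and notochord markers 5 were measured, with a summed relative signal of 0.782 and 1.03 in Venus-positive cells, against 0.997 and 1.15 in Venus-negative cells, and before adjustment 0 were higher and 1 lower. Noto, Shh and Cer1 were not among the measured genes.

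Dnai1, an intermediate chain of the outer dynein arms named after its values were seen, had log2 signals of -0.23 and 0.31 in Venus-positive cells, against -1.41 and -0.89 in Venus-negative cells (1.19 ± 0.29 SE, limma adjusted p = 0.130).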
